A study of Homo sapiens with 8 samples.

Results

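Interferon-stimulated genes are the genes that cells switch on in answer to interferons. A fixed list of 41 of them was followed in HEL cells, a human erythroleukaemia line that grows on an activated JAK2 kinase, and its 3 IFITM genes were set against the rest. Each member was represented by the probe set named for that gene alone with the highest mean signal. Such a probe set was found for 38 of the 41 members, among 17958 genes named in this way. GBP1 and DTX3L had only probe sets shared with a second gene, and STAT2 was in no row of the annotation, so these 3 were not analysed here. A further 5 members (IFIT1, OAS2, OASL, GBP2 and IFI44L) had a mean over the 8 arrays below the level of 4.37 on the log2 scale under which genes were not tested, which left 33 members for the tests. That mean was taken over all 4 groups, and the 5 dim members are given below by their values only.

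The cells were harvested 48 h after the start of treatment. Controls received DMSO, and the other groups 0.5 µM LY2784544 (gandotinib, a JAK2 inhibitor), 20 µM GRN163L (imetelstat, a lipid-linked oligonucleotide complementary to the RNA template of telomerase), or both. The labels do not restate the doses for the combination. Every group held 2 arrays, 1 from each of 2 separately made experiments, and all 8 came from the same line, which carries the same activated JAK2 kinase in the controls too. The labels list no control oligonucleotide. In these bulk samples a lower signal because fewer cells carry a transcript cannot be told apart from less transcript per cell.

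Type I interferons bind a receptor that carries the kinases JAK1 and TYK2, and a transcription factor complex that contains STAT2 and IRF9 then binds interferon-stimulated response elements. Interferon gamma signals through JAK1 and JAK2, and its target genes carry gamma-activated sites. Many of the induced proteins block viruses. The IFITM proteins are short membrane proteins that hinder the fusion of viruses with cell membranes, and their genes lie side by side on the short arm of chromosome 11.

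The response elements that name this group are visible in the promoters of its members. In the RefSeq promoter table (GRCh38.p14, 300 bases, from 250 before to 50 after the start of transcription), 31 of the 41 members had an entry, and those without one were IFITM2, IFIT2, USP18, OAS2, OASL, DHX58, IRF7, MX2, GBP2 and TRIM22. The core of the interferon-stimulated response element was searched on both strands as GAAA, any 2 bases and GAAA again. It was present in 21 of these 31 members (67.7%), against 4.38% of the 27305 genes in the table (3.57% of its 35116 promoters). The gamma-activated site TTCNNNGAA was present in 8 of the 31 (25.8%), against 9.38% of genes (7.66% of promoters). A match describes the letters and does not show that a factor binds there. Repeats with another spacing were not searched. Shown here are IFITM1 and IFITM3, the members whose values changed most, and ISG15, which moved little. The signal of ISG15 was dim, with little room to show a fall. The sequences run 5′ to 3′ on the strand of the gene with matches to either motif in capitals.
IFITM1 (chr11:313790-314089, plus strand): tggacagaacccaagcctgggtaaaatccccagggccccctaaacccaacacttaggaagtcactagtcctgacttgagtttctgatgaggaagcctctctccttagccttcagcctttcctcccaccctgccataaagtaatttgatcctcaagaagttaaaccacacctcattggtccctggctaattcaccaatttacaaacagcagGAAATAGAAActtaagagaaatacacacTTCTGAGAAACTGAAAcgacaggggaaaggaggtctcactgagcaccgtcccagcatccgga
IFITM3 (chr11:320811-321110, minus strand): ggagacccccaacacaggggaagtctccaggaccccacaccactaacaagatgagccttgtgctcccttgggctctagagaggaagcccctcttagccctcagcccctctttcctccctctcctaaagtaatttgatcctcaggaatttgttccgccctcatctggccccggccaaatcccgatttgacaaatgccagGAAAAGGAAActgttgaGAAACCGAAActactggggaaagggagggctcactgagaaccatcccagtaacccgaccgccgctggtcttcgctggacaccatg
ISG15 (chr1:1013247-1013546, plus strand): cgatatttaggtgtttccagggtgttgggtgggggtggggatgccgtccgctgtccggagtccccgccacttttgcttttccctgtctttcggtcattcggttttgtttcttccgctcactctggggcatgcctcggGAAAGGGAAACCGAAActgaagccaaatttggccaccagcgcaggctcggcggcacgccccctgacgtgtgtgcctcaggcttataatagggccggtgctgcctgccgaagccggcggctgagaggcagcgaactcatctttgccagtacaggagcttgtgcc
Each of the 3 promoters held the response element core at 2 places. In IFITM1 they began 40 and 6 bases before the start of transcription, and the nearer one overlapped the only gamma-activated site found in the 3. In IFITM3 they began 52 and 35 bases before it. In ISG15 the matches began 113 and 107 bases before the start and overlapped each other.

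The values are log2 RMA signals, and the unit of change is the log2 difference of group means, where -1 is a fall to 50% of the linear signal. Over the 12570 genes tested with limma, 49 were called higher and 111 lower with LY2784544 against control at an adjusted p below 0.05, none with GRN163L, and 95 higher and 341 lower with the combination. The array medians of the tested genes differed from control by -0.10, 0.015 and -0.175 in these comparisons. With all arrays set to a common median, the calls were 63 higher and 89 lower with LY2784544 and 174 and 184 with the combination. Quantile normalization gave 129 higher and 220 lower with the combination. Of the erythroid and megakaryocyte markers of HEL cells, all 9 measured (among them GATA1, KLF1, ITGA2B and ITGB3) lay above the filter in control. Of the markers of T cells (3 measured), B cells (2), monocytes (3) and plasmacytoid dendritic cells (2), CD2, CD79A, LYZ and CSF1R lay above it, while CD3D, CD3E, MS4A1, CD14, CLEC4C and IL3RA lay below it. All 3 treatments were compared with the same control arrays, so their changes are given side by side.

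IFITM3 and IFITM1 fell with LY2784544, and IFITM1 fell with the combination. IFITM3 restricts viruses that enter through late endosomes. Its signal was 7.62 and 8.21 on the control arrays of experiments 1 and 2, 5.86 and 5.18 under LY2784544, 7.95 and 7.59 under GRN163L, and 7.05 and 6.03 under the combination. Both LY2784544 arrays lay below every other array, the combination arrays lay between them and the controls, and the GRN163L arrays overlapped the controls. With LY2784544 the mean went from 7.915 ± 0.42 to 5.52 ± 0.48 (SD, n = 2), a change of -2.395 (SE 0.37, limma adjusted p = 0.0207), or 5.26-fold lower. This was the lowest value among the 33 members and the 4th lowest of all 12570 genes. With the combination IFITM3 was at 6.54 ± 0.72 (-1.375, SE 0.37, adjusted p = 0.0759). The change was -0.57 in experiment 1 and -2.18 in experiment 2. The change with the combination passed under only 3 of 18 alternatives, among them blocking by experiment (adjusted p = 0.0359). Without the combination array of experiment 1, which had the smaller fall, it was -1.885.

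IFITM1 acts mainly at the cell surface. It stood at 11.08 and 11.04 in control, 10.27 and 9.85 under LY2784544, 11.12 and 10.91 under GRN163L, and 9.28 and 9.38 under the combination. The combination arrays were the lowest and the LY2784544 arrays the next, with no overlap between these groups or with the controls. IFITM1 fell with LY2784544 from 11.06 ± 0.03 to 10.06 ± 0.30 (-1.0, SE 0.18, adjusted p = 0.0429). It fell with the combination to 9.33 ± 0.07 (-1.73, SE 0.18, adjusted p = 0.00465, 3.32-fold lower). The combination was also below GRN163L alone (-1.685, adjusted p = 0.0143). Adding GRN163L to LY2784544 gave -0.73 for IFITM1 (95% interval -1.14 to -0.32, adjusted p = 0.142) and 1.02 for IFITM3 (0.19 to 1.85, adjusted p = 0.273), so that the estimates had opposite signs and neither was called.

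**Figure D1:**
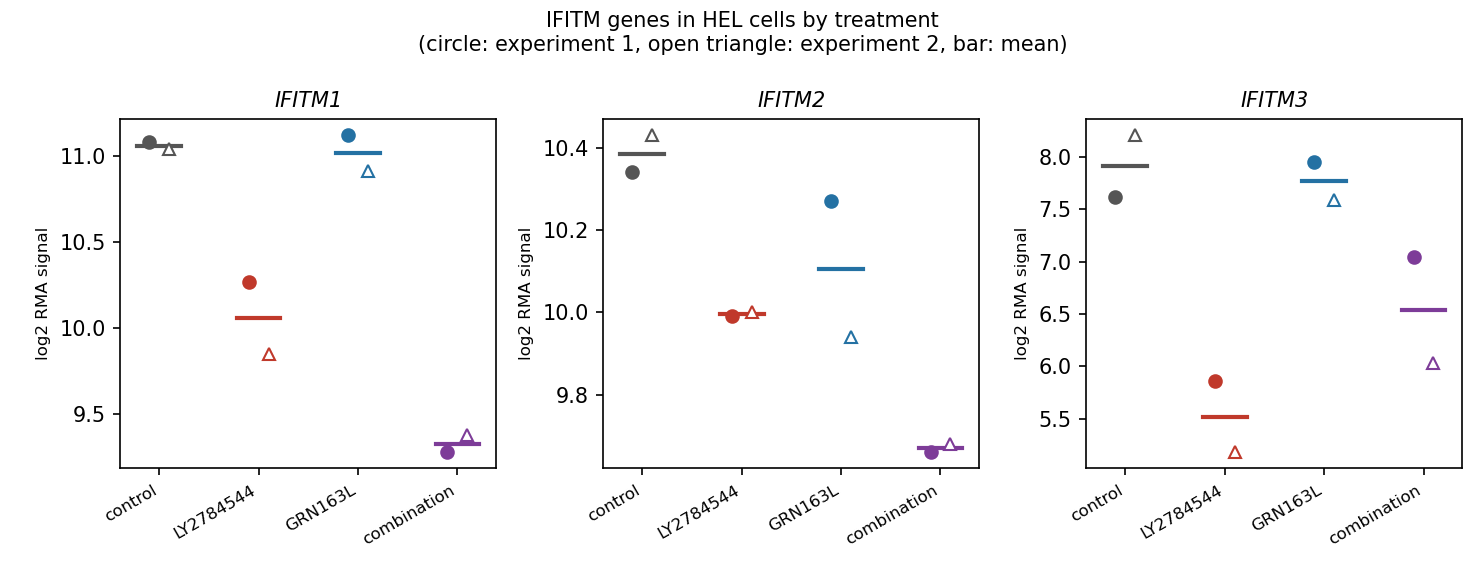
Log2 RMA signal of IFITM1, IFITM2 and IFITM3 (vertical axes, each panel with its own range) in control, LY2784544, GRN163L and combination arrays; circles are experiment 1, open triangles experiment 2 and bars group means. IFITM1 is lowest with the combination (9.28 and 9.38), IFITM3 with LY2784544 (5.86 and 5.18), and IFITM2 spans the narrowest range.

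IFITM2, which like IFITM3 acts in endosomes, moved less. Its values were 10.34 and 10.43 in control, 9.99 and 10.00 under LY2784544, 10.27 and 9.94 under GRN163L, and 9.66 and 9.68 under the combination. All 6 treated arrays lay below both controls. The change was -0.39 with LY2784544 (SE 0.16, adjusted p = 0.352) and -0.715 with the combination (SE 0.16, adjusted p = 0.0516). The latter passed under 2 of 18 alternatives, among them blocking by experiment (adjusted p = 0.0279). The 3 genes share much of their sequence, so a probe set may take up signal from a neighbouring copy. This was not tested.

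With GRN163L alone the changes were -0.045 for IFITM1 (95% interval -0.46 to 0.37), -0.28 for IFITM2 (-0.65 to 0.09) and -0.145 for IFITM3 (-0.98 to 0.69), none of them called (adjusted p = 0.995 each). The interaction, which asks whether GRN163L adds the same amount in the presence and absence of LY2784544, was -0.685 for IFITM1 (-1.27 to -0.10) and 1.165 for IFITM3 (-0.01 to 2.34), also not called (adjusted p = 0.999 each). No gene was called for the interaction by limma (0% of the 12570), where 464 had an unadjusted p below 0.05, and none when blocked by experiment, where 742 had.

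The falls of IFITM1 and IFITM3 with LY2784544 depended on few arrays. Both lost their call without either control array, either GRN163L array or the LY2784544 array of experiment 2, with adjusted p-values of 0.0921 to 0.200 for IFITM1 and 0.0633 to 0.129 for IFITM3. IFITM1 also lost it without the LY2784544 array of experiment 1 (0.0535), and on a common median it was -0.90 (adjusted p = 0.0768). The fall of IFITM1 with the combination stayed called under all 18 alternatives, with adjusted p-values from 0.00185 to 0.0447. Its fall against GRN163L lost the call without either GRN163L array (0.122 and 0.185) or the combination array of experiment 1 (0.0567).

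None of the 5 measured genes on each side of IFITM1, IFITM2 and IFITM3 had a change against control as large as those of IFITM1 and IFITM3 with LY2784544 or the combination. In chromosome order, the 5 measured genes before these 3 were RIC8A, SIRT3, NLRP6, PGGHG and the family member IFITM5. The 5 after them were B4GALNT4, PKP3, SIGIRR, ANO9 and PTDSS2. Their changes lay between -0.285 (PKP3) and 0.28 (PTDSS2) with LY2784544, and between -0.385 (SIGIRR) and 0.18 (NLRP6) with the combination. None of the 7 that were tested was called in any of the 3 comparisons with control. IFITM5, the bone-restricted family member, lay below the filter at 3.76 ± 0.01 in control. B4GALNT4 and ANO9 (4.38 each in control) also lay below it, and NLRP6 (4.51), PKP3 (5.105) and PGGHG (5.11) were not far above. Such signals leave little room to show a fall. RIC8A (7.92), SIRT3 (7.435), PTDSS2 (7.285) and SIGIRR (7.265) stood higher. IFITM10, a distant relative that was not among these neighbours, was at 0.355 with LY2784544 (limma adjusted p = 0.503).

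**Figure D2:**
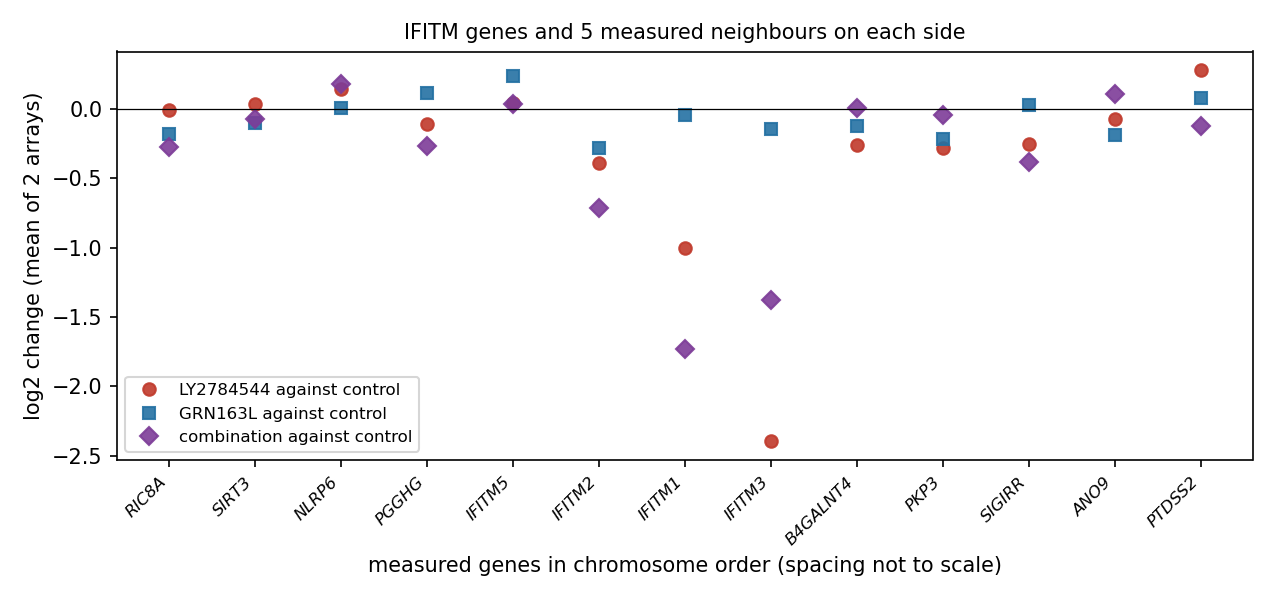
Log2 change against control (vertical axis) of IFITM2, IFITM1 and IFITM3 and of the 5 measured genes on each side, in chromosome order (horizontal axis, spacing not to scale), for LY2784544, GRN163L and the combination. IFITM3 reaches -2.395 while the neighbours, IFITM5 among them, stay between -0.385 and 0.28. Several neighbours have dim signals, with little room to show a fall.

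Of the GTPases, MX2, which blocks the nuclear import of retroviruses, was the only member outside the IFITM genes to be called in any of the 6 comparisons. Its values were 9.30 and 9.37 in control, 8.27 and 8.72 under LY2784544, 9.08 and 9.25 under GRN163L, and 8.11 and 8.58 under the combination. The 4 arrays with LY2784544, alone or combined, lay below the 4 without it. MX2 fell with the combination from 9.335 ± 0.05 to 8.345 ± 0.33 (-0.99, SE 0.21, adjusted p = 0.0456). The call held under 9 of 18 alternatives. It was lost without a filter, on a common median and with the compared groups only. It was also lost without either control array, either GRN163L array or the combination array of experiment 1. Without both LY2784544-treated arrays of experiment 1, a choice made after seeing the data, it was lost at -0.755. With LY2784544 alone MX2 was at -0.84 (adjusted p = 0.121) and with the combination against GRN163L at -0.82 (0.15). Each of these passed under 1 of 18 alternatives, when blocked by experiment (0.0330 and 0.0471). Its relative MX1, which traps influenza and other RNA viruses in the cytoplasm, lay close to the filter at 4.31 and 4.40 in control and differed by -0.045 with LY2784544 and 0.03 with the combination. GBP2, a guanylate-binding protein, lay below the filter at 3.22 to 3.95.

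The cytoplasmic sensors of viral RNA had lower means with LY2784544 and with the combination, without a call. DHX58, which encodes the regulator LGP2, stood at 6.01 and 5.51 in control, 4.78 and 4.80 under LY2784544, 6.19 and 5.90 under GRN163L, and 5.43 and 5.29 under the combination. The LY2784544 arrays were the lowest and agreed closely. The change with LY2784544 was -0.97 (SE 0.20, adjusted p = 0.0650), and with the combination it was -0.40 (adjusted p = 0.272). The former passed under 1 of 17 alternatives, when blocked by experiment (0.0228). RIGI, the sensor of short RNA with triphosphate ends, was at -0.55 with LY2784544 and -0.265 with the combination. IFIH1, which encodes MDA5, the sensor of long double-stranded RNA, was at -0.53 and -0.72. Its value with LY2784544 was -1.05 in experiment 1 and -0.01 in experiment 2.

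Of the 3 transcription factors measured, IRF9 and IRF1 were higher with GRN163L than in control in both experiments, again without a call. IRF7 differed in sign between the experiments. IRF9, the DNA-binding partner of STAT2, was at 7.40 and 7.15 in control, 7.54 and 7.18 under LY2784544, 7.88 and 8.05 under GRN163L, and 7.74 and 7.63 under the combination. All 4 arrays with GRN163L lay above the 4 without it. The change was 0.69 with GRN163L (95% interval 0.28 to 1.10, adjusted p = 0.796) and 0.41 with the combination (adjusted p = 0.221). IRF1, an activator of interferon gamma targets, was at 7.85 and 8.10 in control, 7.62 and 7.99 under LY2784544, 8.32 and 8.54 under GRN163L, and 7.30 and 7.69 under the combination. Its mean was highest with GRN163L and lowest with the combination, and those arrays did not overlap. The difference was -0.935 (adjusted p = 0.106), which passed under 1 of 18 alternatives, when blocked by experiment (0.0200). IRF7, which amplifies the type I response, differed from control by -0.05, 0.10 and -0.24 with LY2784544, GRN163L and the combination.

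No member of the IFIT family, which bind foreign RNA ends, was called, and IFIT2 and IFIT3 differed in sign between the experiments. IFIT2 was at -0.79 in experiment 1 and 0.11 in experiment 2 with LY2784544, and at -0.59 and 0.96 with the combination. IFIT3 was at 0.16 with LY2784544 (-0.02 in experiment 1 and 0.34 in experiment 2) and -0.005 with the combination (-0.33 and 0.32). IFIT5 was at -0.665 (adjusted p = 0.255) and -0.385, with every LY2784544 array below the controls. IFIT1 lay below the filter, at 3.87 to 4.51 over the 8 arrays. Of the oligoadenylate synthetases, which activate RNase L, OAS1 was at -0.63 with LY2784544 (adjusted p = 0.230). OAS3 was at -0.535 with the combination (adjusted p = 0.173). This passed under 1 of 18 alternatives, when blocked by experiment (0.0417). OAS2 (3.44 to 3.72) and OASL (3.75 to 4.26) lay below the filter.

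No member of the ISG15 pathway, which attaches the small modifier ISG15 to other proteins, was called. ISG15 itself lay between 4.83 and 5.13 on all 8 arrays and differed from control by 0.02, -0.07 and -0.15 with LY2784544, GRN163L and the combination. USP18, the protease that removes ISG15 and also dampens the interferon receptor, was at 8.39 and 8.32 in control and 8.79 and 8.90 with the combination, above all other arrays (0.49, SE 0.14, adjusted p = 0.0964). HERC5, the ligase for ISG15, was at -0.645 with the combination (adjusted p = 0.224) and HERC6, its paralogue, at 0.185.

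The remaining antiviral effectors went both ways. TRIM22, a ubiquitin ligase, was at 6.31 and 6.07 in control, 5.63 and 5.44 under LY2784544, 6.42 and 6.66 under GRN163L, and 5.92 and 5.54 under the combination, with every LY2784544-treated array below the rest. PARP9, an ADP-ribosyltransferase that works with DTX3L, likewise had every LY2784544-treated array below the rest, from 6.48 and 6.30 in control to 5.85 and 5.88 with LY2784544. Their changes with LY2784544 were -0.655 (adjusted p = 0.169) and -0.525 (0.211). CMPK2 (0.555), a mitochondrial nucleotide kinase, SAMD9L (0.625) and SAMD9 (0.32), translation-blocking factors, and RSAD2 (0.37), which encodes viperin, had higher means with LY2784544, none of them called. SAMD9 and RSAD2 were both at -0.01 in experiment 1 and at 0.65 and 0.75 in experiment 2. ISG20, an exonuclease, and BST2, which tethers budding virions, were at 0.015 and -0.225 with LY2784544.

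Of the other induced genes, XAF1, a cofactor of apoptosis, was highest with GRN163L at 6.41 and 7.0, against 6.02 and 5.88 in control (0.755, 95% interval 0.16 to 1.35, adjusted p = 0.995). With the combination it was at 6.04 and 5.72, close to control. IFI44 was at 7.19 and 6.74 in control and 7.09 and 8.14 with the combination, so that the change was -0.10 in experiment 1 and 1.4 in experiment 2. IFI6, a mitochondrial and endoplasmic reticulum protein, was at 0.05 with LY2784544 and at -0.64 with the combination (adjusted p = 0.125). The latter passed under 1 of 18 alternatives, when blocked by experiment (0.0402). IFI35 was at -0.435 with the combination and IFI27 at 0.065. IFI44L lay below the filter at 3.0 to 3.75, and its highest value was on a combination array.

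**Figure D3:**
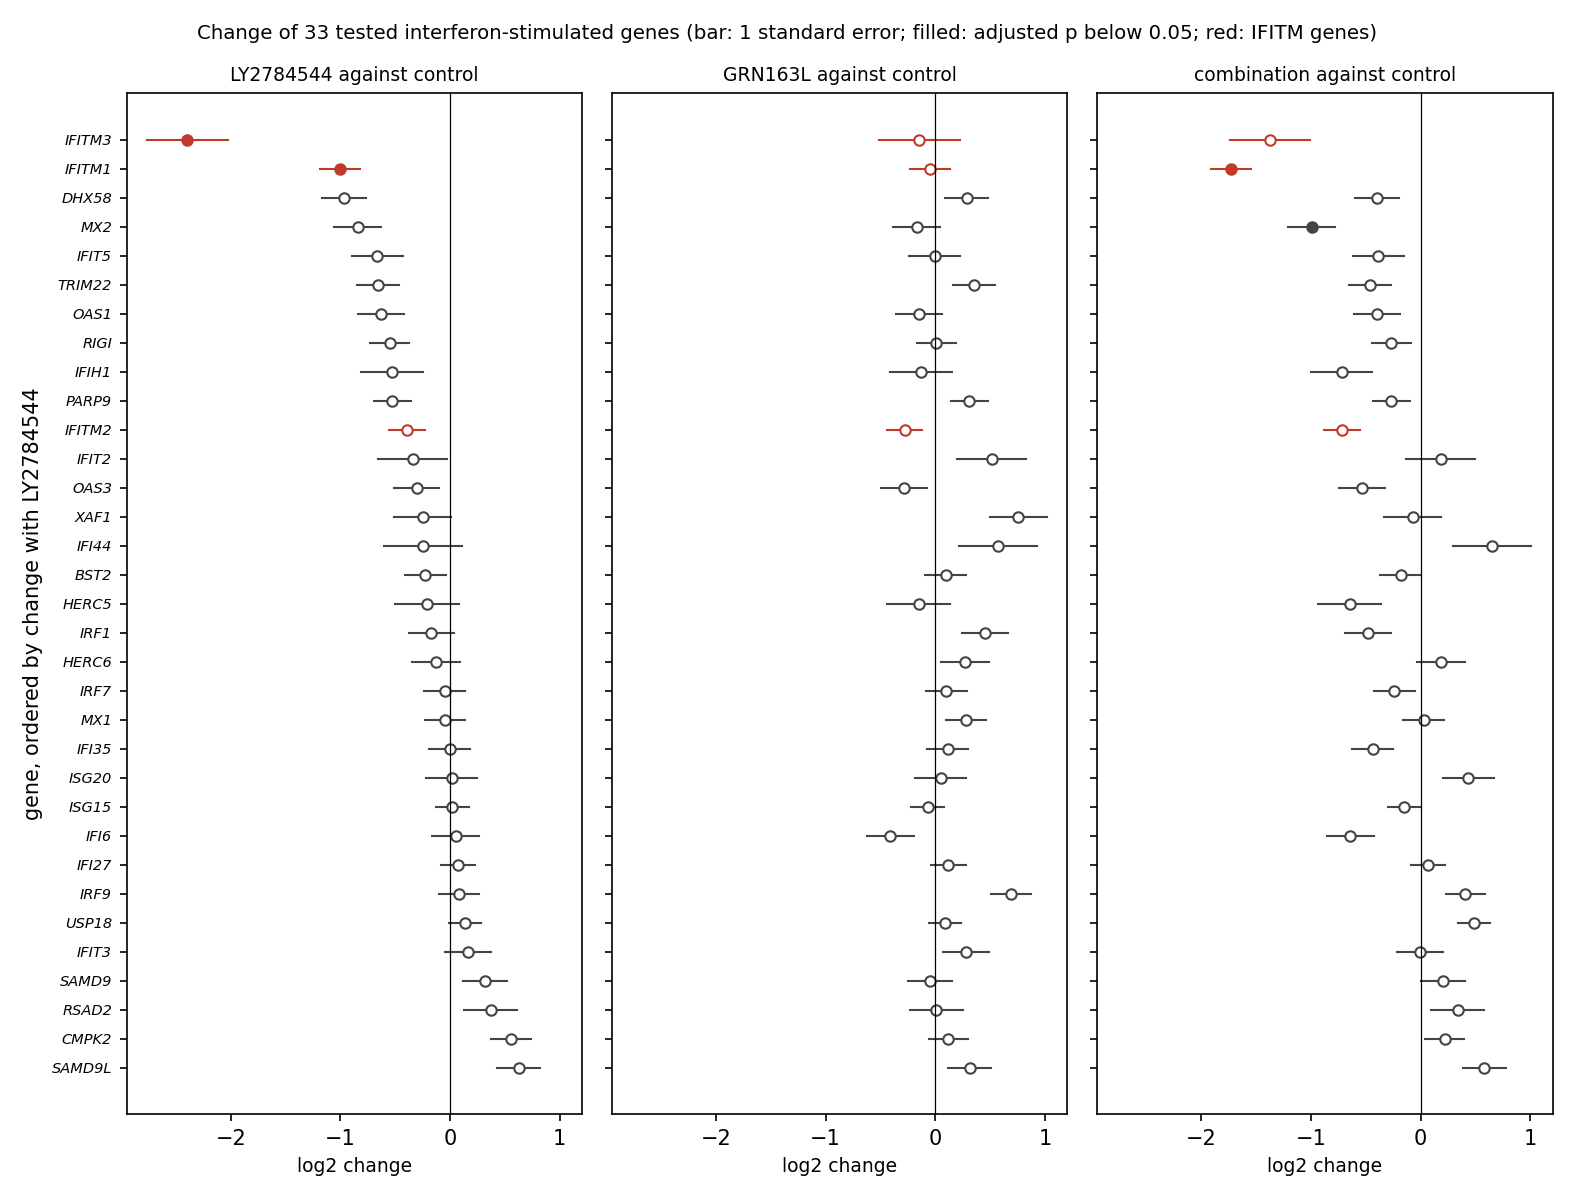
Log2 change against control (horizontal axes) of the 33 tested interferon-stimulated genes (rows, ordered by their change with LY2784544) for LY2784544, GRN163L and the combination; bars are 1 standard error, filled points have an adjusted p below 0.05 and IFITM genes are red. The filled points are IFITM3 and IFITM1 with LY2784544 and IFITM1 and MX2 with the combination, and none with GRN163L.

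Few of the 33 members were called, and those called were lower. With LY2784544, 2 of 33 members fell and none rose (6.06%), while 1.27% of all tested genes were called, 0.883% lower and 0.39% higher. With the combination 2 of 33 fell and none rose (6.06%), where 3.47% of all genes were called, 2.71% lower and 0.756% higher. In the combination against GRN163L 1 of 33 fell and none rose (3.03%), where 0.541% of all genes were called, 0.469% lower and 0.0716% higher. In the combination against LY2784544 no member was called, where 0.31% of all genes were, 0.231% lower and 0.0796% higher. With GRN163L against control no member and no gene was called (0%). For GRN163L, 595 of the 12570 genes and 2 of the 33 members (IRF9 and XAF1) had an unadjusted limma p below 0.05, and 1028 genes had when blocked by experiment. For LY2784544 against control 1656 genes and 12 members had, and for the combination against control 2899 genes and 12 members. For the combination against LY2784544 it was 1696 genes and 7 members, and against GRN163L 1816 genes and 11 members. Blocking by experiment raised the members called lower from 2 to 4 of 33 with LY2784544, where all genes called lower went from 111 to 246 of 12570. With the combination it raised them from 2 to 6 (341 to 1025 of all genes). In the combination against GRN163L it raised them from 1 to 3 (59 to 181 of all genes).

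Read by overlap alone, both LY2784544 arrays lay below both controls for 12 of the 33 members (36.4%, against 25.2% of all genes) and above them for 3 (9.09%, against 17%). With the combination 16 lay below (48.5%, against 32.2%) and 3 above (9.09%, against 21.5%). With GRN163L the balance was the other way, with 3 below (9.09%, against 16.4%) and 11 above (33.3%, against 17.5%). The combination lay below LY2784544 for 8 members (24.2%, against 22.8%) and above it for 10 (30.3%, against 18.9%), and below GRN163L for 15 (45.5%, against 31.3%) and above it for 4 (12.1%, against 14.4%). The median change of the 33 members was -0.21 with LY2784544, 0.095 with GRN163L and -0.24 with the combination, beside -0.04, 0.005 and -0.065 over all tested genes. On a common array median the members' values were -0.11, 0.08 and -0.065, with 19, 14 and 18 of 33 lower in place of 22, 12 and 21, and the median of the 30 members other than IFITM with the combination turned from -0.165 to 0.01.

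The median change of the IFITM genes was below that of the other members in each comparison with control, by amounts that differed between the experiments. Single members did not all follow this order. IFITM2 ranked 11th lowest of the 33 with LY2784544, and IFI6 (-0.41) and OAS3 (-0.285) lay below all 3 IFITM genes with GRN163L. With LY2784544 the median change was -1.0 for the 3 IFITM genes and -0.15 for the other 30 tested members, a difference of -0.85 (-0.685 in experiment 1 and -1.16 in experiment 2). With the combination it was -1.375 against -0.165, a difference of -1.21 (-0.49 and -1.47). With GRN163L it was -0.145 against 0.11, a difference of -0.25 (0.005 and -0.725), so that in experiment 1 the IFITM median was not the lower one. A median of 3 genes is the value of 1 of them. With the combination this was IFITM3 for the mean of both experiments, IFITM2 in experiment 1 and IFITM1 in experiment 2. It changed with GRN163L too, so these differences do not follow the same gene. With the 5 dim members included, the differences were -0.87, -1.34 and -0.26 for LY2784544, the combination and GRN163L. No p is given for these differences, since the members were chosen with earlier results known with IFITM3 as their marker gene.

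**Figure D4:**
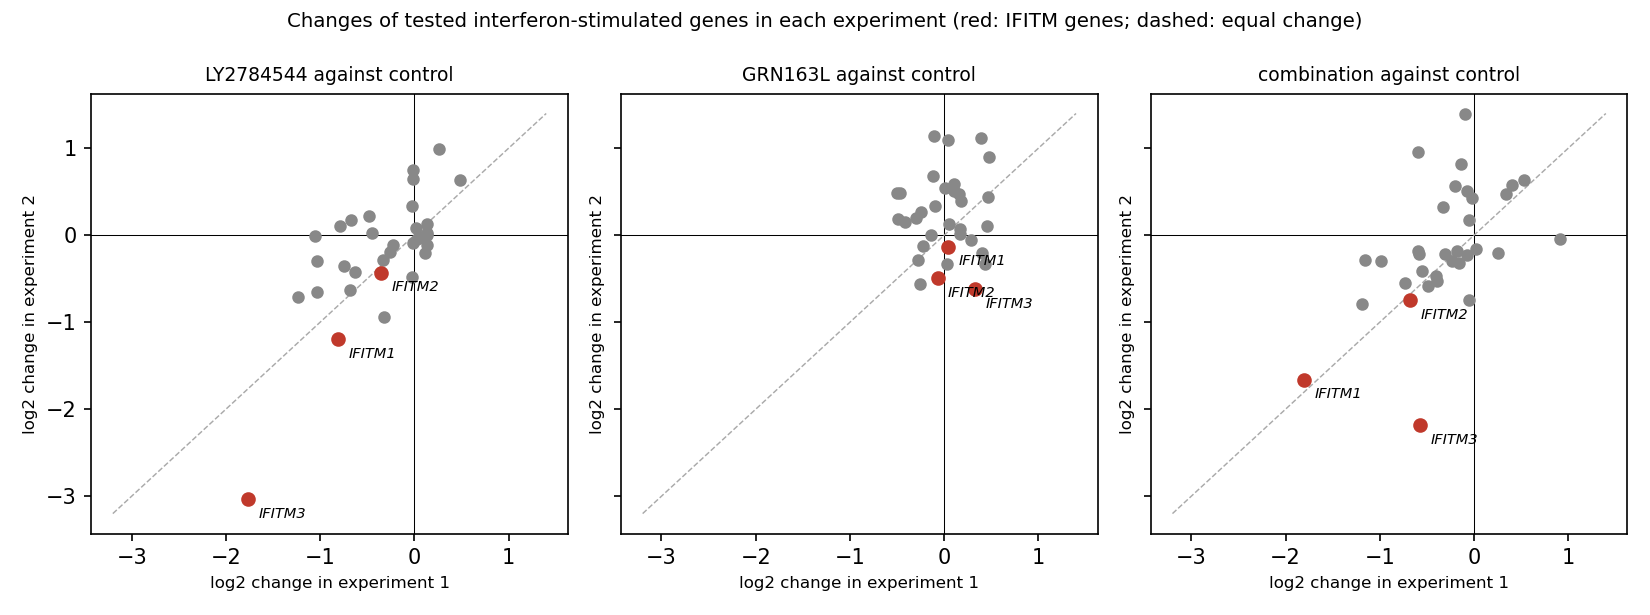
Log2 change against control in experiment 1 (horizontal axes) and experiment 2 (vertical axes) of the 33 tested interferon-stimulated genes for LY2784544, GRN163L and the combination; red points are IFITM genes and the dashed line marks equal changes. IFITM3 lies farthest out with LY2784544 (-1.76 and -3.03), and with the combination it lies at -0.57 and -2.18, away from the line.

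Members with and without the response element core were also set side by side. Among the tested members with a promoter entry, 17 held the core and 9 did not. The 9 include OAS1, RIGI, XAF1 and CMPK2, whose promoters hold the GAAA repeat with a single base between the copies. The search did not count that spacing, so the groups need not separate members with and without a response element. With LY2784544 the median change was -0.21 for those with the core and -0.13 for those without it, and with the combination -0.18 and -0.07. With GRN163L it was -0.005 and 0.275. These medians are descriptions of the 26 genes and carry no test.

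Other parts of the interferon pathway, taken from lists written with earlier results of these data known, held 85 tested genes, of which 7 were called in at least 1 comparison. With the combination against control 6 of the 85 fell (7.06%) and 1 rose (1.18%), beside 2.71% and 0.756% of all tested genes. With LY2784544 1 of the 85 fell (1.18%), beside 0.883%, and with GRN163L none was called, as among all genes (0%). In the combination against LY2784544 and against GRN163L 3 fell in each (3.53%), beside 0.231% and 0.469%. Of the interferons themselves 14 of 21 were measured and only IFNL1 and IFNL3 lay above the filter, with no call. Of 11 tested receptors, kinases and transcription factors, IFNGR2 was called. It encodes the signalling chain of the interferon gamma receptor, which carries JAK2. IFNGR2 was at 7.52 and 7.60 in control, 7.36 and 7.35 under LY2784544, 7.15 and 7.09 under GRN163L, and 6.27 and 5.82 under the combination. The groups did not overlap, and the combination was the lowest. IFNGR2 fell with the combination against control (-1.515, SE 0.18, adjusted p = 0.00642), against LY2784544 (-1.31, 0.0283) and against GRN163L (-1.075, 0.0457). The first call was lost only without the control array of experiment 2 (0.0562). The second held under 9 of 18 alternatives and the third under 5. Both were lost without either control, either LY2784544 or either GRN163L array or the combination array of experiment 2. The third was also lost without the combination array of experiment 1 and on a common median (-0.885, adjusted p = 0.143). IFNGR1, IFNAR1, IFNAR2, JAK1, JAK2 and TYK2 were not called in any comparison.

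**Figure D5:**
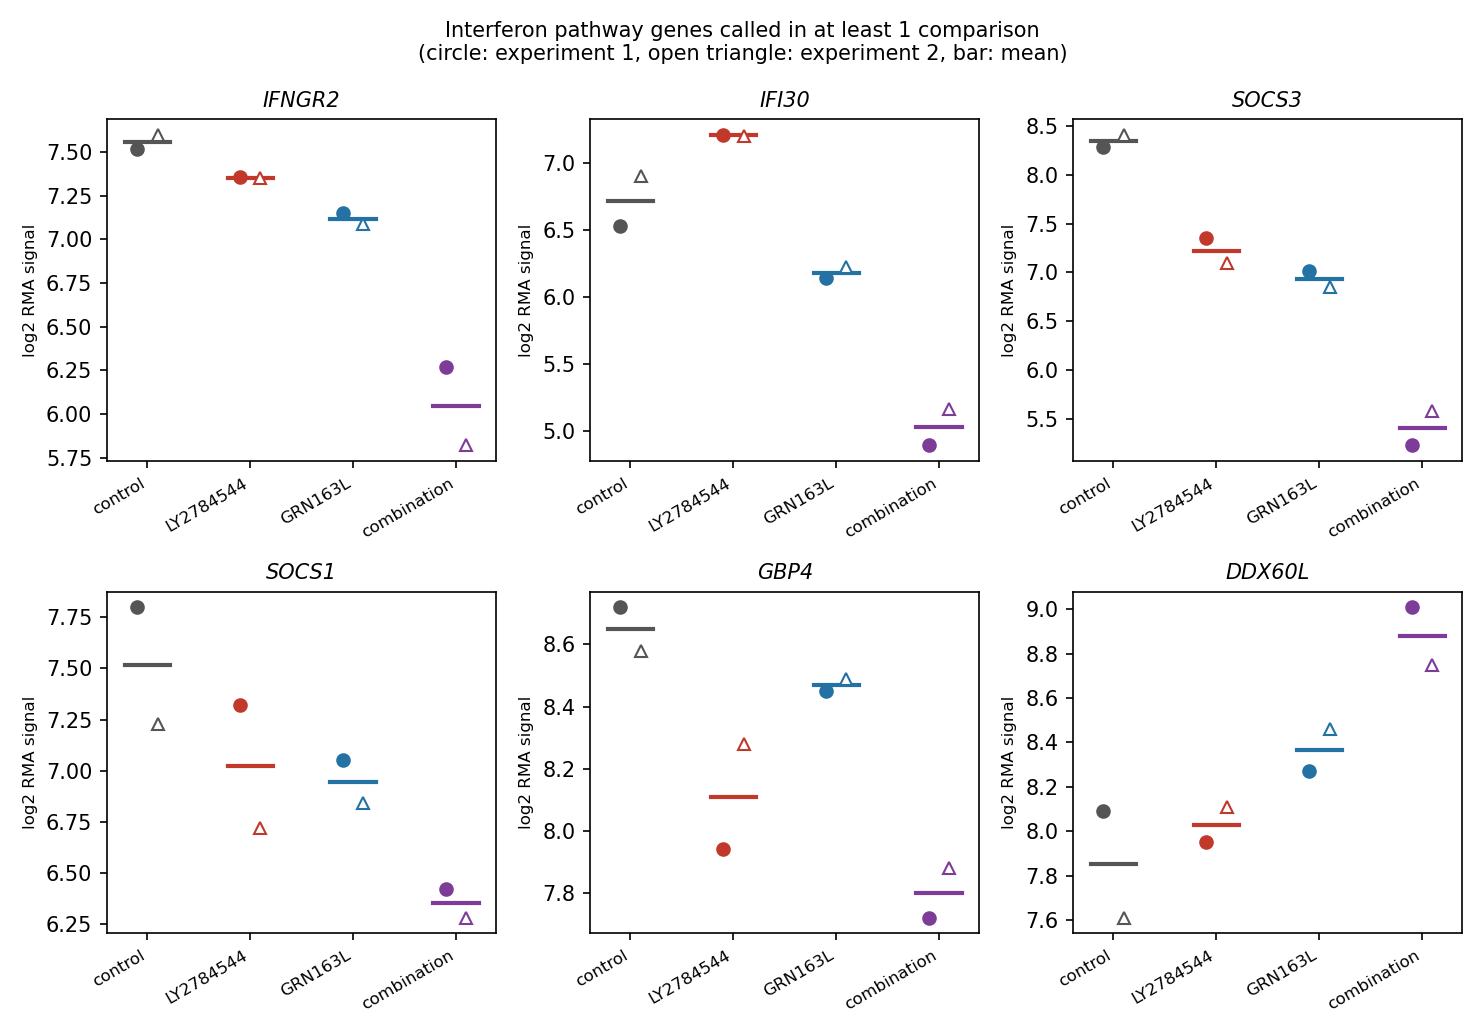
Log2 RMA signal (vertical axes, each panel with its own range) of 6 of the 7 interferon pathway genes outside the main list that were called in at least 1 comparison, by treatment group; circles are experiment 1, open triangles experiment 2 and bars group means. IFNGR2, IFI30, SOCS3, SOCS1 and GBP4 are lowest with the combination, and DDX60L is highest there.

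Among 33 tested further interferon-stimulated genes, 2 fell and 1 rose with the combination, where 2.71% of all genes were called lower and 0.756% higher. None was called with either agent alone, where 1.27% of all genes were called with LY2784544 and 0% with GRN163L. IFI30, a lysosomal thiol reductase induced by interferon gamma, was at 6.53 and 6.90 in control, 7.21 and 7.20 under LY2784544, 6.14 and 6.22 under GRN163L, and 4.89 and 5.16 under the combination. Its values were highest with LY2784544 and lowest with the combination. IFI30 fell with the combination against control (-1.69, SE 0.18, adjusted p = 0.00465), against LY2784544 (-2.18, 0.00301) and against GRN163L (-1.155, 0.0372). The first call held under all 18 alternatives and the second under all but the fit on the compared groups only (0.105). The third held under 10, and was lost without either GRN163L array (0.226 and 0.287), without either combination array (0.159 and 0.0517) and on a common median (0.0722). GBP4, a guanylate-binding protein, fell with the combination (-0.85, SE 0.17, adjusted p = 0.0366) and DDX60L, a helicase-like antiviral factor, rose (1.03, SE 0.20, adjusted p = 0.0343). Both lost the call without either control or either GRN163L array. Both also lost it without the combination array of experiment 1, as GBP4 did without that of experiment 2. GBP4 lost it on a common median too (-0.675, adjusted p = 0.0599).

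Of 9 tested feedback and negative regulators, SOCS1 and SOCS3 were called and SOCS2, CISH and the others were not. SOCS3, which is induced by STAT3 and blocks JAK kinases, fell with LY2784544 (-1.125, adjusted p = 0.0251) and with the combination (-2.945, adjusted p = 4.77e-04). Its values were 8.29 and 8.41 in control, 7.35 and 7.10 under LY2784544, 7.02 and 6.85 under GRN163L, and 5.23 and 5.58 under the combination. The mean under GRN163L (6.935) was below that under LY2784544 (7.225), though SOCS3 was not called with GRN163L against control, where no gene was. The combination was lower than LY2784544 (-1.82, SE 0.18, adjusted p = 0.00531) and than GRN163L (-1.53, adjusted p = 0.0174). The fall with the combination against control held under all 18 alternatives. The fall with LY2784544 held under 10 and was lost without either control, LY2784544 or GRN163L array (0.0667 to 0.133), and the difference from GRN163L was lost without either GRN163L array (0.143 and 0.185) or the combination array of experiment 1 (0.0708). SOCS1, which restrains interferon gamma signalling, was at 7.80 and 7.23 in control and 6.42 and 6.28 with the combination (-1.165, SE 0.25, adjusted p = 0.0449). That call was lost when any 1 control, GRN163L or combination array was left out, and on a common median (-0.99, adjusted p = 0.0776). It was lost as well with quantile normalization (0.0792), without a filter (0.0557) and with the compared groups only (0.0752). Of 15 tested genes of nucleic acid sensing, UNC93B1, the chaperone of endosomal Toll-like receptors, fell with the combination (-0.785, SE 0.17, adjusted p = 0.0472). UNC93B1 lost the call when any 1 array was left out, with the mean of its probe sets (0.383) and on a common median (-0.61, adjusted p = 0.103). Of 14 tested genes of class I antigen presentation none was called. NLRC5, their transcriptional activator, was at 0.775 with the combination (adjusted p = 0.0628), and the immunoproteasome genes PSMB8 and PSMB9 were at -0.645 and -0.665 with the combination against GRN163L (adjusted p = 0.204 and 0.279).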

How the data were processed

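Log2 signals of 8 arrays (4 groups of 2) were analysed. Per the submitters' processing notes, the authors made the deposited log2 values with RMA in Affymetrix Expression Console, which corrects background, quantile-normalizes the arrays and summarises each probe set. The sources used here give neither a program version nor a genome build, and the log base was taken from the values and the use of RMA. RMA compresses changes of dim probe sets.

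Of 33297 probe sets, 19181 named 1 gene, 2055 named several and 12061 were unnamed here, by GEO's platform annotation; gene numbers of 19143 matched RefSeq. The probe set with the highest mean stood for each of 17958 genes. Genes under the 30th percentile (4.37) were left out. A model of 4 group means over all 8 arrays was fitted with limma 3.58.1 in R 4.3.3, with Benjamini-Hochberg adjustment over 12570 genes in each of 6 contrasts (residual degrees of freedom 4, prior 4.65), after a check on simulated data. The 2 arrays per group limit the precision, and p-values reflect only how far these arrays differ, part of which may be technical. The replicate number marks a shared experiment per the labels, so it pairs the arrays; deviations of same-numbered arrays from their group means correlated with r = 0.10 to 0.67.

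The members and the lists were chosen with earlier results of these data known. The text names the IFITM genes, members called, the 12 further members with the widest range of group means, called genes and up to 4 genes per pathway list, and 5 neighbours on each side; other members are given so that each is accounted for. Alternatives were the experiment as a block, other filters, median or quantile normalization, probe sets averaged per gene, a mean-variance trend, robust moderation, the compared groups only and leaving out each array.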

Additional observations from a re-analysis of the deposited data

How the results depend on the processing

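With the experiment as a block (replicate block), which pairs the arrays, 4 members were called with LY2784544 against control in place of 2. With the combination 6 were called in place of 2, and with the combination against GRN163L 3 in place of 1. In these comparisons all genes called lower went from 111 to 246, from 341 to 1025 and from 59 to 181 of 12570. Blocking changed no call of a member in the other comparisons. With LY2784544, 1 member (IFITM3) was called at a filter of the 50th percentile, on a common median, with quantile normalization and with the compared groups only. With the combination, 1 member (IFITM1) was called without a filter, on a common median and with the compared groups only. Without both LY2784544-treated arrays of experiment 1 (a choice made after seeing the data), 2 members (IFITM1 and IFITM3) were called with the combination against GRN163L. Leaving out single arrays gave 0 to 2 members with LY2784544, 1 to 2 with the combination and 0 to 1 against GRN163L, and 0 in the other 3 comparisons. No called change of a member turned its sign under any alternative. The difference between IFITM genes and other members lay between -1.165 and -0.645 with LY2784544, -1.60 and -0.73 with the combination, and -0.56 and -0.11 with GRN163L. These moves were less than 1 SD of the values of the 2 experiments (0.336, 0.693 and 0.516). An SD of 2 values is wide where the experiments differ, so this does not show that the difference was stable. Signals near or not far above the filter level, such as those of MX1, IFI27, ISG20 and ISG15, leave little room to show a fall.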
